A study of Mus musculus with 50 samples.

Results

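The genes described here encode the nuclear pore and the receptors that carry cargo through it, measured in single mouse oocytes with and without a conditional knockout of Zfp36l2. They were chosen by symbol alone: every row of the count table beginning with Nup or Xpo and a digit, with Kpna or Kpnb, or with Ipo and a digit, together with Tnpo1, Tnpo2, Tnpo3, Tpr, Pom121 and Ndc1. This gave 47 of 16614 rows, 25 for nucleoporins and 22 for transport receptors (karyopherins). The study set oocytes labelled cKO-Zfp36l2 against oocytes labelled F/F-, the floxed controls, to find genes whose expression differs once Zfp36l2 is lost. All females were 5 weeks old and had received 10 IU of PMSG, which stimulates ovarian follicles to grow, and after 46 hours germinal vesicle oocytes, arrested in meiotic prophase and enclosed in cumulus cells, were taken in medium with 5 µM milrinone, which holds meiosis in arrest. Both genotypes were handled alike: the cumulus cells and the zona pellucida were removed, and each oocyte became its own library. Sources used here do not give the driver of the Cre recombinase.

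The nuclear pore complex is a ring of nucleoporins set into the nuclear envelope. A Y-shaped outer scaffold and an inner ring hold up a central channel filled with phenylalanine-glycine repeats, filaments reach into the cytoplasm, and a basket hangs into the nucleus. Importin alpha binds the classical nuclear localisation signal and is carried through by importin beta, other members of the importin beta family bind their cargo directly, and exportins carry cargo out, all under the control of the GTPase RAN. In the fully grown oocyte most transcripts were stored during growth, and the germinal vesicle is a large nucleus whose envelope is taken apart when meiosis resumes. ZFP36L2 belongs to the tristetraprolin family, zinc finger proteins known to attach to AU-rich stretches near the end of an mRNA and to speed its breakdown.

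There were 26 floxed oocytes (5, 7, 7 and 7 from floxed mice 1 to 4) and 24 knockout oocytes (1, 7, 8 and 8 from knockout mice 1 to 4). Counts were summed per mouse, so n = 4 mice in each group, and levels are given as mean ± SD over mice. Every p-value is set against the spread between mouse sums. That spread includes differences between oocytes, and knockout mouse 1 is a single oocyte. Totals ran from 1746007 to 6233840 counts per oocyte and from 4332108 to 44498770 per mouse, with knockout mouse 1, a single oocyte, the lowest. Zfp36l2 itself stood at 3.51, 1.96, 4.17 and 3.44 CPM (a gene's count scaled to a common library total) in floxed mice 1 to 4 and at 2.77, 1.61, 2.56 and 1.06 CPM in knockout mice 1 to 4. These ranges overlapped (log2 fold change −0.78, SE 0.43, 95% interval −1.76 to 0.19, edgeR adjusted p = 0.208). The count does not separate exons inside and outside the deleted part, so this row does not check the labels, and knockout means the oocytes so labelled. All 13 oocyte markers looked up were in the table, with summed levels of 5220.4 to 6318.7 CPM in floxed and 5328.7 to 5887.4 CPM in knockout mice; 2 of the 13 were called higher and 1 lower by edgeR, and as many by DESeq2 and limma. The 13 cumulus and granulosa markers found, of 16, summed to 171.2 to 256.1 CPM in floxed and 172.0 to 326.5 CPM in knockout mice, none of them was at 0 in all mice, and Cyp19a1 was the highest at 82.8 and 78.8 CPM. Of these 13, edgeR called 0 (2 higher at an unadjusted p under 0.05), limma 0 and DESeq2 1 higher. The 3 of 8 blood and immune markers found summed to 5.16 to 11.7 and 2.77 to 7.3 CPM, with 1 of 2 tested called higher by edgeR; DESeq2 and limma called 1 higher and 1 lower. The 5 of 8 theca and stroma markers found summed to 7.67 to 14.7 CPM in floxed and 2.54 to 9.48 CPM in knockout mice, with 1 of 4 tested called lower by edgeR, 1 by DESeq2 and 2 by limma. The part of these cells in the results was not tested.

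Floxed mouse 1 and knockout mouse 1, different animals that share only a number in the labels, stood apart from the others of their groups. Knockout mouse 1 is a single oocyte with 4332108 counts in all. The mouse numbered 1 was the lowest of its group in both genotypes for 24 of the 46 pore and transport genes tested (52.2%). Among them were Nup160, Tpr, Kpnb1, Ipo8 and Xpo1, and the share of all tested genes was 22.4%. The mouse of that number was the highest in both for 8 (17.4%), among them Nup188, Kpna4 and Ipo4, against 20.7% of all tested genes. What sets these mice apart was not tested, and counts of calls are also given without mouse 1 of either genotype.

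Of the 47 genes, 46 had enough counts to be tested, and 13 of them were called (edgeR quasi-likelihood test on mouse sums, Benjamini-Hochberg adjusted p under 0.05 over all genes). In knockout oocytes 9 were higher: the importin alpha genes Kpna1, Kpna4 and Kpna6, the importin beta family genes Tnpo2, Tnpo3, Ipo7 and Ipo9, and the nucleoporins Nup188 and Nup62. The 4 lower genes were Nup98, Tpr, Kpna3 and Ipo4, and 33 were not called. The called share was 28.3%, close to the 27.6% of all 15029 tested genes, of which 14.4% were higher and 13.2% lower. The mice of the 2 groups did not overlap for 13 of the 46 genes, 9 with all knockout mice above (16.0% of all genes) and 4 with all below (15.0%), together 28.3% against 31.0% of all genes; these were the called genes, except that Kpna2 took the place of Tpr. The median log2 fold change of the 46 genes was −0.06 against −0.01 for all tested genes. CPM and the normalization centre all fold changes, so higher and lower are relative to the rest of the transcripts, and the amount of mRNA per oocyte was not measured.

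Among the 24 nucleoporins tested, 2 were higher and 2 lower (16.7%, median log2 fold change −0.14). Among the 22 karyopherins 7 were higher and 2 lower (40.9%, median 0.08). Of all tested genes 27.6% were called, and the differences between these shares were not tested. Without mouse 1 of either genotype the 13 calls were kept and 11 were added, giving 11 higher and 13 lower, while 20.8% of all genes were then higher and 23.1% lower (43.9% together). The added lower genes were Nup107, Nup43, Nup93, Nup153, Nup50, Kpna2, Ipo8, Kpnb1 and Tnpo1, and the added higher genes were Ipo11 and Ipo13. The count of lower genes moved with single mice: it was 8 without floxed mouse 1 (16.4% of all genes lower), 1 without floxed mouse 4 (7.91%), and 2 without floxed mouse 2 (8.71%) or knockout mouse 2 (10.2%). The count of higher genes was 6 without floxed mouse 4 (9.8% of all genes higher) or without knockout mouse 2 (8.89%), 3 (9.02%) or 4 (10.1%). So the share of all genes called moved as well. The calls of Nup188, Nup98, Kpna1, Kpna4, Ipo7, Ipo9 and Tnpo2, 7 of the 13, held under all 14 alternatives tried.

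**Figure D1:**
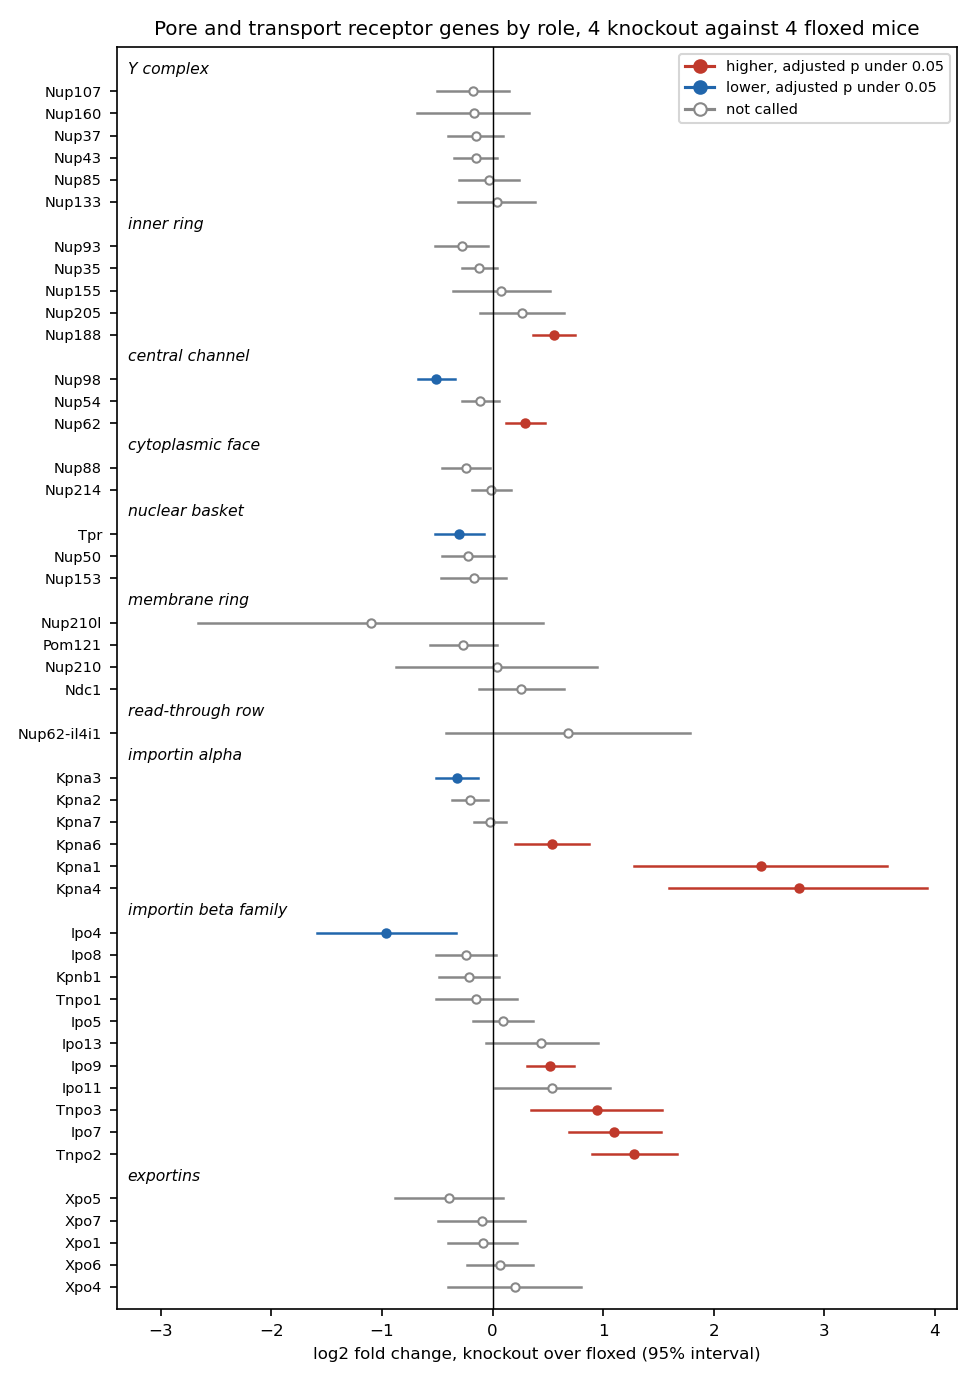
Log2 fold change (horizontal axis, knockout over floxed) of the 46 tested genes grouped by role in the pore or in transport, with 95% intervals over 4 floxed and 4 knockout mice. Filled points mark the 9 higher and 4 lower genes; Kpna4 (2.77) and Kpna1 (2.43) lie farthest to the right and the 5 exportins all cross 0.

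The 3′ untranslated regions were searched for TATTTAT, the core of the AU-rich element that the ZFP36 family is known to bind, on the transcribed strand. It was present in 15 of the 45 pore and transport genes with an annotated region of at least 20 bases (33.3%), against 27.7% of 13803 tested genes. Among the called genes it was present in 5 of the 9 higher ones (55.6%; 32.0% of all higher genes) and 1 of the 4 lower ones (25.0%; 25.0% of all lower genes), and among those not called in 9 of 32 (28.1%; 27.4% of all). The annotated regions were also longer, with a median of 1192 bases in the set against 1003 bases over all tested genes, and of 1868 bases in the 9 higher genes against 1256 bases in all higher genes; the part of length in these shares was not tested. The 30 bases around each match in the 6 called genes are printed so that the flanks can be compared; binding was not measured. TATTTAT is in capitals, sequences are read 5′ to 3′ on the gene's own strand, and positions are in mm10 (GENCODE M21 annotation).
Nup188 (higher; chr2:30344219-30344248, plus strand): ataccgtggtcTATTTATacaaatattaaa
Kpna1 (higher; chr16:36036542-36036571, plus strand): aagcatgttagTATTTATaacataaaacct
Kpna6 (higher; chr4:129644065-129644094, minus strand): cagacaaatgaTATTTATatacacatccaa
Ipo7 (higher; chr7:110056196-110056225, plus strand): agtgcaaaatgTATTTATaagattaatacc
Ipo9 (higher; chr1:135382626-135382655, minus strand): tttggcgacagTATTTATcgggaagattaa
Kpna3 (lower; chr14:61365910-61365939, minus strand): tggcctctgatTATTTATaggttttataaa
Each of these 6 genes held 1 match. In Nup188 the match began 352 bases after the stop codon in a region of only 388, and in Kpna6 at base 3909 of 4012, so both lie close to the end of the transcript. In Kpna3, which was lower, it began at base 1703 of 2420. Of the higher genes, Kpna4 (1868 bases), Tnpo2 (2053), Tnpo3 (1077) and Nup62 (669) had no match in their annotated regions, and these include the gene with the largest rise, Kpna4. The longer form TTATTTATT, which contains TATTTAT, was present in only 1 of the 45 (2.22%), against 7.22% of all tested genes. That gene was Nup160, an outer scaffold component that was not called, with its match on the plus strand at chr2:90735983-90736012.
Nup160: actcctttcatTATTTATtgtagagttttt

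The 6 outer scaffold genes grouped here as the Y complex did not differ detectably between genotypes with all mice in the test. Outside this group, Seh1l, a Y complex gene that the rule leaves out, was called higher (log2 fold change 0.71, edgeR adjusted p = 0.00351). Nup98, which also encodes NUP96 of the Y complex, was called lower (−0.51, adjusted p = 0.00146). None of the 6 Y complex genes tested (Nup107, Nup133, Nup160, Nup37, Nup43, Nup85) was called by edgeR, DESeq2 or limma, and 0 had an unadjusted p under 0.05 in any of them, and their median log2 fold change was −0.15. Per kb of transcript, Nup43 was the most abundant of them (132.6 CPM per kb in floxed oocytes). Its mean level over 4 mice was 170.5 ± 10.7 CPM (SD) in the floxed group and 157 ± 7.72 CPM in the knockout group, with a log2 fold change of −0.15 and a 95% interval from −0.35 to 0.04. Nup160 showed how far mouse 1 stood off: floxed mice 1 to 4 were at 199.9, 321, 355 and 363 CPM, and knockout mice 1 to 4 at 189, 270.0, 325 and 346 CPM. Its groups overlapped almost fully and its interval was wide (−0.68 to 0.33). Without mouse 1 of either genotype Nup107 (log2 fold change −0.25, edgeR adjusted p = 0.0107) and Nup43 (−0.21, adjusted p = 0.0323) were called lower, and Nup107 also without floxed mouse 1 alone (−0.33, adjusted p = 0.0393).

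In the inner ring, 1 of 5 genes was called, as higher (against 27.6% of all genes called), and the median log2 fold change was 0.08. Nup188 (chr2:30286397-30344266, plus strand) encodes a large scaffold protein that binds NUP93. It was at 144, 133, 135 and 129 CPM in floxed mice 1 to 4 and at 223, 208, 182 and 205 CPM in knockout mice 1 to 4. Every knockout mouse lay above every floxed mouse, and the means were 135 ± 6.28 and 205 ± 17.2 CPM. The rise was 1.47-fold (log2 fold change 0.56, SE 0.09, edgeR adjusted p = 0.00199) and held under every alternative. Its partner Nup93 moved the other way in value without passing the test, from 247 ± 17.5 (floxed) to 209 ± 26.9 CPM (knockout), with a log2 fold change of −0.28 (95% interval −0.52 to −0.04, adjusted p = 0.0812). Without mouse 1 of either genotype Nup93 was called lower (−0.29, adjusted p = 0.00703), as it was without floxed mouse 1 alone (−0.37, adjusted p = 0.0281). Nup35, the most abundant inner ring gene per kb (123.4 CPM per kb), was at 192 ± 7.17 and 182 ± 4.29 CPM (log2 fold change −0.12, interval −0.28 to 0.04). The large scaffold genes Nup205 and Nup155 had log2 fold changes of 0.27 and 0.08 with intervals across 0.

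The central channel held a pair of called genes that went in opposite directions (66.7% of the 3 tested, against 27.6% of all genes called). Nup98 (chr7:102119398-102210176, minus strand) encodes an FG-repeat protein of the channel and, from the same precursor, NUP96 of the Y complex. It was at 296, 324, 292 and 312 CPM in floxed mice 1 to 4 and 232, 210.3, 226 and 219 CPM in knockout mice 1 to 4. The groups did not overlap, the means were 306 ± 15.1 and 222 ± 9.2 CPM, and the spread within each group was small. Nup98 was 1.42-fold lower (log2 fold change −0.51, SE 0.07, edgeR adjusted p = 0.00146), under every alternative as well. Since counts are per gene, transcripts for NUP98 and for NUP96 were not separated.

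Nup62 (chr7:44816088-44830812, plus strand) encodes the main FG-repeat protein of the channel. Its levels were 178, 168, 164 and 156 CPM in floxed mice 1 to 4 and 187, 210.5, 226 and 213 CPM in knockout mice 1 to 4. The groups did not overlap, though knockout mouse 1 came close to floxed mouse 1. The rise was small, 1.22-fold (log2 fold change 0.29, SE 0.08, edgeR adjusted p = 0.0215). Its call was lost without floxed mouse 3 or 4 or knockout mouse 2, 3 or 4 (adjusted p from 0.0549 to 0.163). A separate row for the read-through transcript Nup62-il4i1, which shares sequence with Nup62, was at 1.13 ± 0.493 and 1.83 ± 0.611 CPM (log2 fold change 0.68, interval −0.42 to 1.79), and sources used here do not say how reads were divided between the rows. Nup54, the channel partner of NUP62, was at 217 ± 15.2 and 206 ± 8.14 CPM (log2 fold change −0.11, interval −0.28 to 0.06). Nup62cl, a paralogue of Nup62, had too few counts to be tested: it was at 0, 0, 0 and 0.124 CPM in floxed mice and at 0, 0.146, 0.742 and 0.941 CPM in knockout mice.

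At the cytoplasmic face, neither of the 2 genes was called by edgeR, DESeq2 or limma, though Nup88 had an unadjusted p under 0.05 in 2 of these tests, edgeR and DESeq2. Nup214 was at 423 ± 37.9 and 432 ± 20.5 CPM (log2 fold change −0.01, interval −0.19 to 0.17). Its partner Nup88, the more abundant per kb (90.6 CPM per kb), was at 234 ± 25.1 and 203 ± 14.8 CPM (log2 fold change −0.24, interval −0.46 to −0.02, edgeR adjusted p = 0.0927).

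Of the 3 nuclear basket genes, 1 was called, as lower (33.3%, against 27.6% of all genes called), and the median log2 fold change was −0.22. Tpr (chr1:150392838-150449935, plus strand) encodes the coiled-coil protein that forms the basket filaments, and it was the most abundant of them per kb (56.9 CPM per kb). It was at 369, 416, 452 and 455 CPM in floxed mice 1 to 4 and at 308, 352, 375 and 376 CPM in knockout mice 1 to 4. Floxed mouse 1 lay among the knockout mice, so the groups overlapped. The fall was 1.23-fold (log2 fold change −0.30, SE 0.10, adjusted p = 0.0463) and was the closest to the threshold of the 13 calls. It was lost with upper-quartile factors (adjusted p = 0.0529), with limma on mouse means of log2(CPM + 1) (0.0925), and without floxed mouse 2, 3 or 4 or knockout mouse 2 (0.0599 to 0.128). Nup153 and Nup50, the other two basket genes, had log2 fold changes of −0.17 and −0.22 and were called lower without mouse 1 of either genotype (−0.27, adjusted p = 0.0214, and −0.32, adjusted p = 0.00692). Nup153 was also called without floxed mouse 1 (adjusted p = 0.0325) and Nup50 without knockout mouse 1 (0.0112).

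None of the 4 membrane ring genes, which anchor the pore in the envelope, was called by edgeR, DESeq2 or limma, and 0 had an unadjusted p under 0.05. Pom121, the most abundant per kb at 17.5 CPM per kb, was at 97.5 ± 14.5 and 83.2 ± 11.3 CPM (log2 fold change −0.27, interval −0.57 to 0.04). Ndc1 had a value in the other direction, 61.3 ± 15.0 against 75.4 ± 5.18 CPM (0.26, interval −0.12 to 0.65). Nup210 and its paralogue Nup210l were low, at 7.12 ± 1.18 and 1.43 ± 0.748 CPM in floxed oocytes, and their intervals were too wide to show even large differences (−0.87 to 0.94 and −2.66 to 0.46).

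The importin alpha genes held the largest fold changes of all 46 tested genes. Of the 6, 3 were higher and 1 lower (66.7% called, against 27.6% of all genes), with a median log2 fold change of 0.26. The 2 that rose most were almost unexpressed in floxed oocytes. Kpna4 (chr3:69067149-69127113, minus strand) encodes importin alpha 3. It was at 1.45, 0.776, 0.965 and 0.992 CPM in floxed mice 1 to 4 and at 15.2, 6.34, 4.47 and 3.76 CPM in knockout mice 1 to 4. Every knockout mouse was above every floxed mouse, with the single oocyte of knockout mouse 1 the highest by far. The rise was 6.8-fold (log2 fold change 2.77, SE 0.52, 95% interval 1.60 to 3.93, edgeR adjusted p = 0.00468). Over all alternatives its log2 fold change ranged from 1.97 to 2.94, and the call was kept in each.

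Kpna1 (chr16:35978750-36037131, plus strand) encodes importin alpha 5. It was at 2.2, 1.18, 1.9 and 1.27 CPM in floxed mice 1 to 4 and at 3, 8.53, 6.81 and 17.4 CPM in knockout mice 1 to 4. The groups did not overlap, and here knockout mouse 1 was the lowest and knockout mouse 4 the highest of the knockout mice. The rise was 5.39-fold (log2 fold change 2.43, SE 0.51, interval 1.28 to 3.57, edgeR adjusted p = 0.00782), and its log2 fold change lay between 1.75 and 2.82 over all alternatives. Kpna6 (chr4:129643980-129672767, minus strand), whose protein importin alpha 7 is required in the egg for early embryo development, was expressed at a moderate level. It was at 44.6, 52.9, 54.3 and 49.3 CPM in floxed mice 1 to 4, and at 57.9, 82.6, 86 and 72.7 CPM in knockout mice 1 to 4. The groups did not overlap and the rise was 1.45-fold (0.54, SE 0.15, adjusted p = 0.026). That call was lost without floxed mouse 1, 2 or 4 or knockout mouse 2, 3 or 4 (adjusted p from 0.0541 to 0.107).

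The abundant importin alpha genes did not rise. Kpna3 (chr14:61365211-61439874, minus strand), which encodes importin alpha 4, was at 344, 377, 399 and 413 CPM in floxed mice 1 to 4 and at 322, 328, 305 and 307 CPM in knockout mice 1 to 4. The groups did not overlap, and the fall was 1.25-fold (log2 fold change −0.32, SE 0.08, edgeR adjusted p = 0.02), lost without floxed mouse 3 or 4 (adjusted p = 0.0526 and 0.0633). Kpna2 was at 384, 426, 353 and 387 CPM in floxed mice and at 344, 349, 342 and 348 CPM in knockout mice 1 to 4, so its groups did not overlap either. Its log2 fold change of −0.20 (95% interval −0.37 to −0.04) missed the threshold (adjusted p = 0.0666) and passed it without mouse 1 of either genotype (−0.26, adjusted p = 0.0425) or without floxed mouse 3 (−0.25, adjusted p = 0.0463). Kpna7, the importin alpha of oocytes and early embryos, was at 405, 432, 389.6 and 416 CPM in floxed mice and at 424, 417, 408 and 413 CPM in knockout mice. Its groups overlapped, and the interval of the log2 fold change was narrow, from −0.17 to 0.12 (adjusted p = 0.831).

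On a per-length scale, Kpna2 and Kpna7 each held about the same part of the importin alpha signal. This scale adjusts for transcript length and not for differences in PCR amplification, so shares of mRNA molecules were not measured. Of the summed CPM per kb, Kpna2 held 39.8 ± 1.58% in floxed and 37.7 ± 0.366% in knockout mice, and Kpna7 held 38.3 ± 0.453% and 41.1 ± 0.424%. Kpna3 held 19.9 ± 1.7% and 17.4 ± 0.424%. Kpna6 held 1.86 ± 0.173% and 2.94 ± 0.506%, Kpna1 0.0695 ± 0.0236% and 0.398 ± 0.273%, and Kpna4 0.0597 ± 0.0182% and 0.447 ± 0.316%. So the genes with the largest rises remained a minor part of the family's summed CPM per kb. The sum was 474 ± 22.2 CPM per kb in the floxed group and 446 ± 5.74 in the knockout group.

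**Figure D2:**
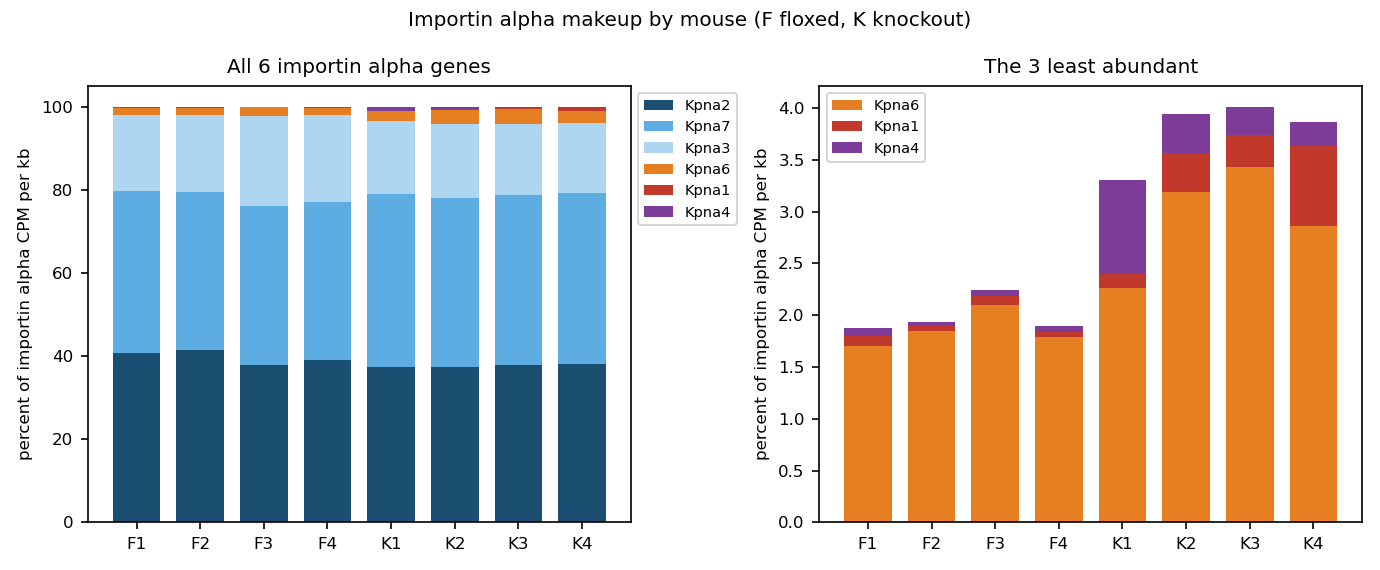
Percent of the summed importin alpha CPM per kb held by each gene in each mouse (left, all 6 genes; right, the 3 least abundant on an enlarged scale; F1 to F4 floxed, K1 to K4 knockout). Kpna2, Kpna7 and Kpna3 fill most of every bar, while Kpna6 rises from a mean of 1.86% to 2.94% and Kpna1 and Kpna4 stay under 1% in every mouse.

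In the importin beta family 4 of 11 genes were higher and 1 was lower (45.5% called, against 27.6% of all genes). The median log2 fold change was 0.44. Tnpo2 (chr8:85036915-85057583, plus strand) encodes transportin 2, a receptor for RNA-binding proteins of the hnRNP type. It was at 18.2, 12.2, 14.8 and 13.8 CPM in floxed mice 1 to 4 and at 38.1, 36.7, 36.5 and 35.9 CPM in knockout mice 1 to 4. The knockout mice were within a few CPM of each other and all above the floxed mice. The rise was 2.43-fold (log2 fold change 1.28, SE 0.17, edgeR adjusted p = 0.00113), the smallest adjusted p of the 46 genes, and it held under every alternative. Its close relative Tnpo1, which is more abundant, was at 197 ± 34.2 and 183 ± 30.2 CPM (log2 fold change −0.15, interval −0.51 to 0.22) and was called lower without mouse 1 of either genotype (−0.20, adjusted p = 0.0298).

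Ipo7 (chr7:110018274-110056609, plus strand) encodes importin 7, a receptor for ribosomal proteins and histone H1. It was at 13.5, 17.5, 18.2 and 16.6 CPM in floxed mice 1 to 4 and at 30.2, 36.8, 35.2 and 43.1 CPM in knockout mice 1 to 4. The groups were well separated, and the rise was 2.15-fold (log2 fold change 1.10, SE 0.19, edgeR adjusted p = 0.00286), under every alternative. Its paralogue Ipo8, the most abundant of the family per kb (90.2 CPM per kb), was at 484 ± 73.9 and 421 ± 21 CPM (−0.24, interval −0.51 to 0.03). Ipo8 was called lower without floxed mouse 1 (−0.39, adjusted p = 0.00429) and without mouse 1 of either genotype (−0.36, adjusted p = 0.00167), and the paralogues therefore had opposite values.

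Ipo9 (chr1:135382312-135430499, minus strand) encodes a receptor for core histones. It was at 124, 118, 149.9 and 127 CPM in floxed mice 1 to 4 and at 179, 191, 194 and 202 CPM in knockout mice 1 to 4. The groups did not overlap and the rise was 1.44-fold (log2 fold change 0.52, SE 0.09, edgeR adjusted p = 0.00377), again under every alternative. Ipo4 (chr14:55625400-55635957, minus strand), also a histone import receptor, was at 42.9, 27.2, 18.3 and 23.2 CPM in floxed mice 1 to 4 and at 18, 14.9, 11.2 and 14.8 CPM in knockout mice 1 to 4. Floxed mouse 1 was far above the rest, and the lowest floxed mouse and the highest knockout mouse almost met. The fall was 1.94-fold (−0.96, SE 0.28, adjusted p = 0.0316); it became −0.74 without floxed mouse 1 (adjusted p = 0.0504) and missed the threshold too with limma on mouse means of log2(CPM + 1) and without floxed mouse 2 or 4 or knockout mouse 2, 3 or 4 (adjusted p from 0.0525 to 0.079).

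Tnpo3 (chr6:29540827-29609887, minus strand) encodes the import receptor for SR splicing factors. It was at 22.6, 11.1, 20.6 and 15.3 CPM in floxed mice 1 to 4 and at 24, 31.4, 39.8 and 40.8 CPM in knockout mice 1 to 4. Knockout mouse 1 was just above the highest floxed mouse, and the others were clearly above. The rise was 1.92-fold (log2 fold change 0.94, SE 0.26, edgeR adjusted p = 0.0264) and was lost without floxed mouse 2 or 4 or knockout mouse 2, 3 or 4 (adjusted p from 0.0621 to 0.0846). Kpnb1, the main importin beta, was at 281 ± 39.8 and 250.2 ± 23.6 CPM (−0.21, interval −0.48 to 0.06), and was called lower without floxed mouse 1 (−0.34, adjusted p = 0.023) and without mouse 1 of either genotype (−0.29, adjusted p = 0.0151). Ipo11 and Ipo13 had values in the direction of the higher genes, with log2 fold changes of 0.54 (interval 0.02 to 1.06, adjusted p = 0.113) and 0.44 (−0.06 to 0.95, adjusted p = 0.172). Both were called higher without knockout mouse 1 (adjusted p = 0.0414 and 0.0278) and without mouse 1 of either genotype (0.0235 and 0.02). Ipo5 had a log2 fold change of 0.09 (interval −0.18 to 0.37).

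None of the 5 exportins that met the rule was called by edgeR, DESeq2 or limma, and 0 had an unadjusted p under 0.05. Their median log2 fold change was −0.09. The tRNA exportin gene Xpot, whose symbol the rule leaves out, was called higher (4.45-fold, edgeR adjusted p = 0.0125). Xpo1, the receptor for leucine-rich nuclear export signals and the most abundant exportin per kb (32.0 CPM per kb), was at 165 ± 26.6 and 159.6 ± 18.2 CPM (log2 fold change −0.09, 95% interval −0.40 to 0.22). Xpo4 (a receptor for eIF5A), Xpo6 (for actin with profilin) and Xpo7 had log2 fold changes of 0.20, 0.07 and −0.10 with intervals across 0. Of the 5, the value farthest from 0 was that of Xpo5, the receptor for precursor miRNAs, at −0.39 (interval −0.88 to 0.09, edgeR adjusted p = 0.206). The intervals reached down to −0.88 for Xpo5 and up to 0.80 for Xpo4, so transcripts of these 5 are not shown to be alike.

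**Figure D3:**
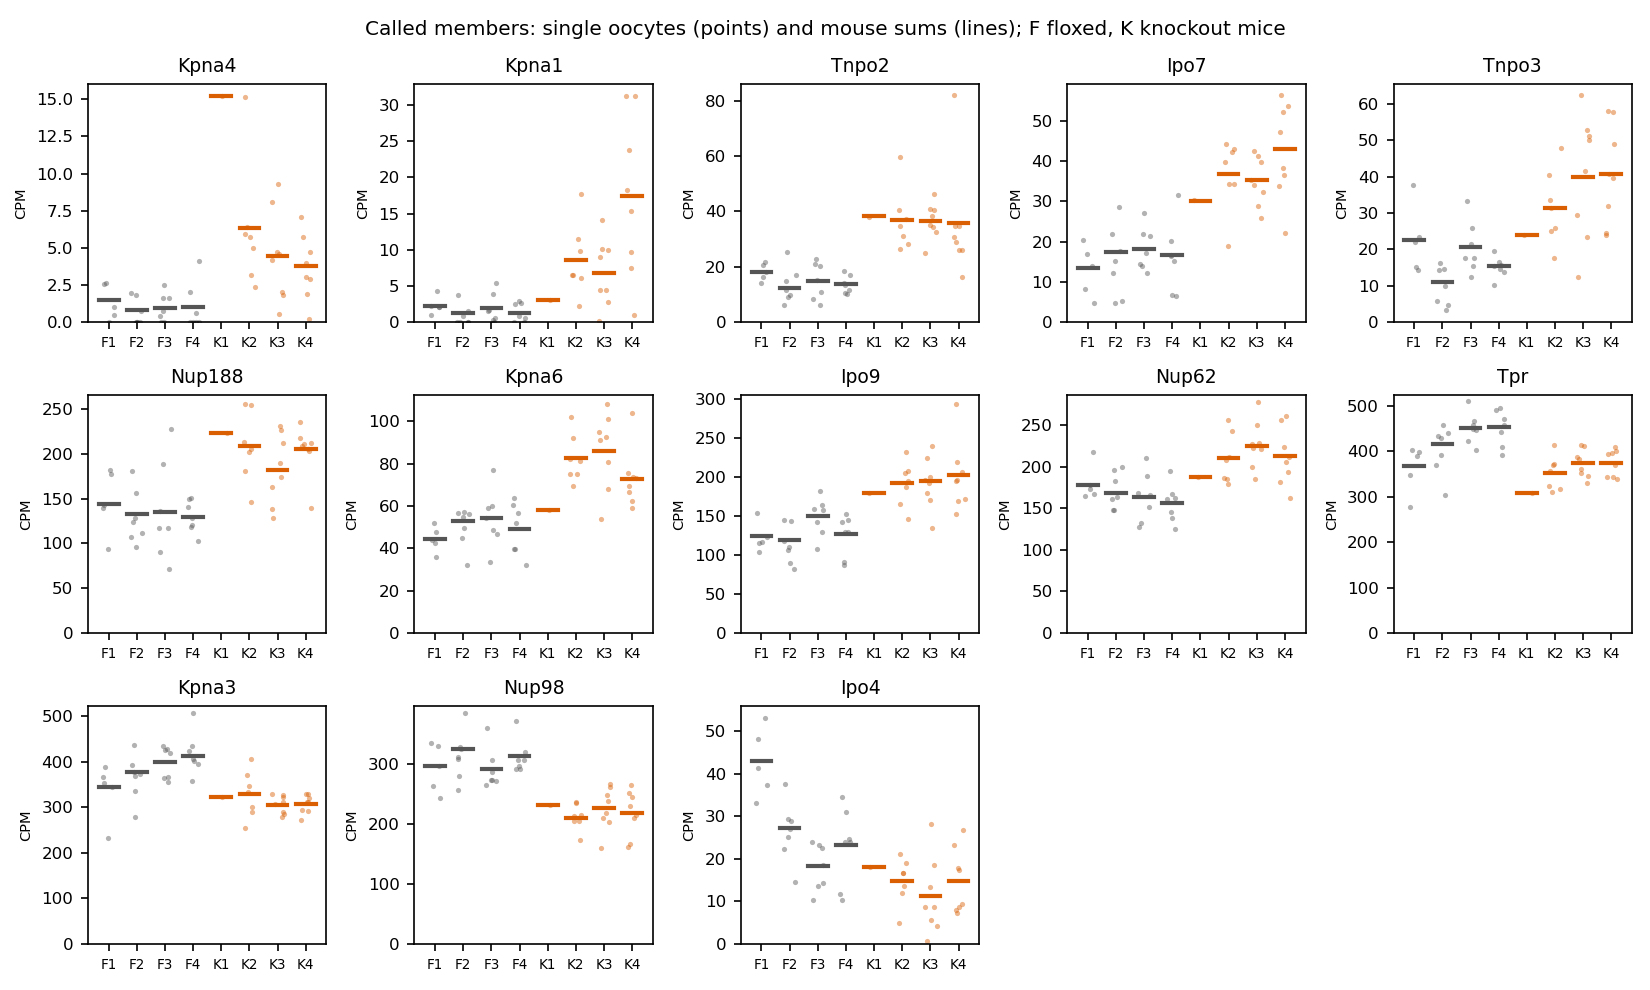
CPM (vertical axes, from 0, scaled per gene) of the 13 called genes in single oocytes (points) and in the summed counts of each mouse (bars), for floxed mice F1 to F4 and knockout mice K1 to K4; points are spread sideways only to be seen. K1 is a single oocyte; the knockout bars lie above or below all floxed bars for every gene shown except Tpr, where F1 overlaps.

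The spread over single oocytes is described for called genes. The mouse sums are made of these same oocytes, so their values are no separate support for the calls. For Tnpo2, floxed oocytes ranged from 6.05 through a median of 14.5 to 25.2 CPM and knockout oocytes from 16.3 through 34.6 to 82.0 CPM, and 22 of 24 knockout oocytes lay above every floxed oocyte. For Ipo7 the ranges were 4.58, 15.8 and 31.7 CPM (lowest, median, highest) against 19.0, 37.3 and 56.5 CPM, with 19 of 24 above every floxed oocyte. For Ipo9 they were 81.9, 129.4 and 182.4 CPM against 134.3, 194.8 and 293.5 CPM, with 15 of 24 above. For each of these genes all 24 knockout oocytes were above the floxed median. Fewer lay above every floxed oocyte for Tnpo3 (12 of 24), Nup62 (11) and Kpna6 (11). For Ipo4, 10 of 24 lay below every floxed oocyte, and for Kpna3 0. No share over all genes was counted beside these numbers of oocytes.

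Nup188 overlapped more between single oocytes, since 4 of 24 knockout oocytes lay above every floxed oocyte, but all 24 were above the floxed median of 127.9 CPM. Nup98 ran from 242.5 through 301.2 to 384.0 CPM in floxed and from 159.3 through 216.5 to 266.8 CPM in knockout oocytes. Here 18 of 24 knockout oocytes lay below every floxed oocyte and none was above the floxed median. For Tpr as well no knockout oocyte exceeded the floxed median of 432.2 CPM.

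Kpna1 and Kpna4 were uneven between oocytes. Kpna1 ranged from 0 through 1.19 to 5.33 CPM in floxed and from 0.183 through 9.31 to 31.3 CPM in knockout oocytes. It had no count in 7 floxed oocytes and a count in every knockout oocyte, and 17 of 24 knockout oocytes lay above every floxed one. Kpna4 ranged from 0 through 0.547 to 4.1 CPM in floxed and from 0.226 through 4.63 to 15.2 CPM in knockout oocytes. It had no count in 11 floxed oocytes and in 0 knockout oocytes (13 and 1 with every oocyte thinned to 1700000 counts), and 14 of 24 lay above every floxed oocyte. Nup62cl had no count in 25 of 26 floxed and 14 of 24 knockout oocytes, so no fold is given.

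Most of the genes were counted in every oocyte. Of the 47 genes, 42 had a count in all 50 oocytes, also after thinning. Of the 47 genes, 41 had a mean level of at least 10 CPM. Between oocytes of the same mouse their median SD of log2(CPM + 1) was 0.221 (range 0.101 to 0.627), against 0.324 for all 9704 genes above that level. Their median depth was also higher, at 0.148 against 0.112 counts per base. Neither the difference in SD nor the part of depth in it was tested. Counts of these genes grew with library size with a median slope of 1.22 on log2 scales in floxed oocytes, where 1 is proportional, against 1.16 for all such genes. The slope was lowest for the abundant Kpna2 (0.52) and, among the called genes, high for Ipo7 (2.01) and Tnpo3 (2.08). Xpo1 had the steepest (2.12). Depth per oocyte was on average higher in the knockout group, though mice of the groups overlapped. Floxed mice 1 to 4 held 19967822, 24495704, 38341024 and 32261179 counts from 5, 7, 7 and 7 oocytes. Knockout mice 1 to 4 held 4332108, 34225014, 44498770 and 42508784 counts from 1, 7, 8 and 8 oocytes. The part of depth in the fold changes was not tested.

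The larger fold changes were those of genes with low levels. In floxed oocytes Kpna4 and Kpna1 stood at 0.281 and 0.326 CPM per kb and Tnpo2, Ipo7 and Tnpo3 at 3.02, 3.45 and 4.08 CPM per kb, against 189 CPM per kb for Kpna2. By mean counts per base of transcript, the lowest class (under 0.05) held 12 of the genes, of which 5 were higher and 1 lower (6 of 12 called, against 27.5% of all genes at that level). From 0.05 to 0.2, 4 of 16 were called (25.0%; 30.5% of all genes), from 0.2 to 0.8, 3 of 16 (18.8%; 24.4%), and of the 2 above that none (19.2% of all genes). Every one of these classes holds fewer than 20 of the genes, so no trend is read from them.

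**Figure D4:**
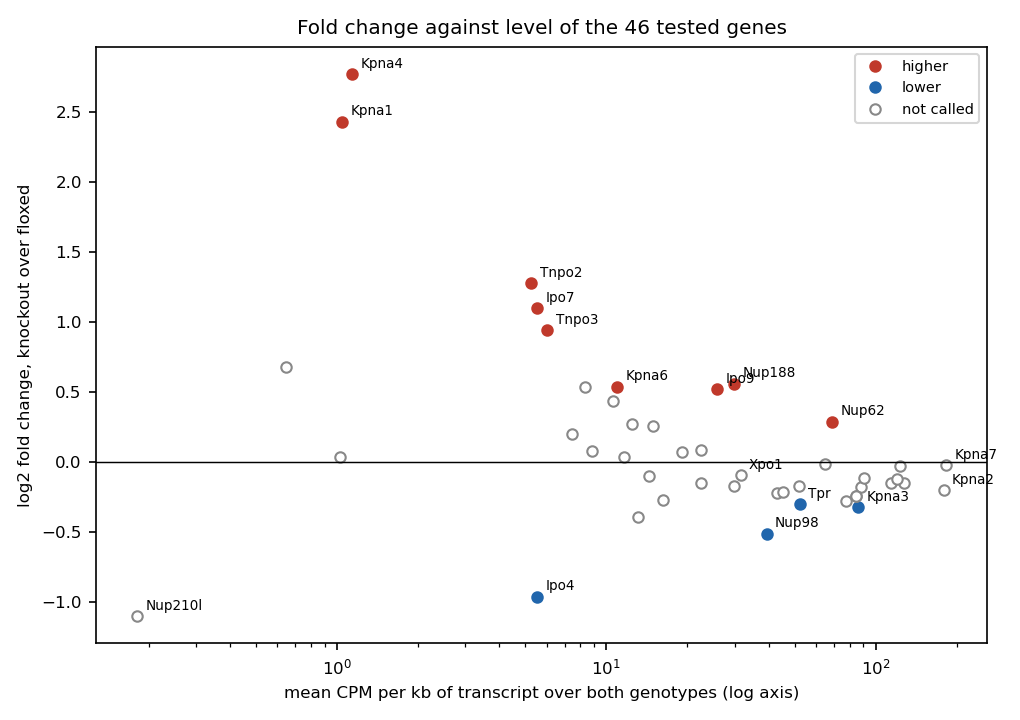
Log2 fold change (vertical axis, knockout over floxed) against mean CPM per kb over both genotypes (horizontal axis, log scale) for the 46 tested genes. The highest points, Kpna4 (2.77) and Kpna1 (2.43), lie at low levels, and Kpna2 and Kpna7, at the right edge, lie near 0 (−0.20 and −0.02).

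The rest of the transport pathway was read from a list of 56 genes for the RAN cycle, other pore components and mRNA export, of which 49 were in the table and 48 tested. It had 6 higher and 4 lower genes (20.8% called, against 27.6% of all genes), and its median log2 fold change was 0.07. On the RAN side, Ran itself rose from 90.0 ± 11.2 to 122.9 ± 3.62 CPM (1.33-fold, edgeR adjusted p = 0.0159), and Rangap1, which drives GTP hydrolysis on RAN in the cytoplasm, from 26.4 ± 7.03 to 47.8 ± 3.84 CPM (1.77-fold, adjusted p = 0.0124). Senp2, a SUMO protease that binds the pore, rose from 15.6 ± 4.84 to 35.3 ± 9.55 CPM (2.21-fold, adjusted p = 0.0167). Among receptors and adaptors, Ncbp1, the large cap-binding subunit, rose from 7.54 ± 1.83 to 24.1 ± 1.79 CPM (3.12-fold, adjusted p = 0.00119), and the tRNA exportin gene Xpot from 1.73 ± 0.865 to 8.12 ± 3.67 CPM (4.45-fold, adjusted p = 0.0125). Seh1l, a Y complex component whose symbol lies outside the rule, rose from 84.4 ± 14.6 to 142 ± 11.2 CPM (1.64-fold, adjusted p = 0.00351).

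The lower genes of that list were a pair from the THO complex of mRNA export, an import adaptor and a pore gene. Thoc1 fell from 161 ± 18.2 to 105 ± 20.4 CPM (1.58-fold, edgeR adjusted p = 0.0119) and Thoc5 from 91.5 ± 9.03 to 57.5 ± 14.9 CPM (1.63-fold, adjusted p = 0.0199). Snupn, the import adaptor of spliceosomal snRNPs, fell from 190.0 ± 7.32 to 163 ± 2.89 CPM (1.2-fold, adjusted p = 0.0226), and Aaas, which encodes the pore protein aladin, from 186 ± 10.9 to 156 ± 12.7 CPM (1.23-fold, adjusted p = 0.0348). In these 10 genes, named because they were called, the mice of the 2 groups did not overlap. Over all tested genes, called or not, the share without overlap was 31.0%. Calls lost without 1 mouse were Ran without floxed mouse 4 or knockout mouse 2, 3 or 4 (adjusted p from 0.0548 to 0.0902), Rangap1 without knockout mouse 2 or 3 (0.0521 and 0.0545), Senp2 without floxed mouse 4 or knockout mouse 2 (0.0534 and 0.0594), Thoc5 without floxed mouse 3 or 4 (0.0543 and 0.0595), Snupn without floxed mouse 4 (0.0762) and Aaas without floxed mouse 2, 3 or 4 or knockout mouse 2 (0.0568 to 0.104). With limma Snupn and Aaas missed the threshold too (0.051 and 0.0521). The list's count of higher genes was 3 without knockout mouse 2 (8.89% of all genes higher). Its count of lower genes was 2 without floxed mouse 3 (9.26% of all genes lower) and 1 without floxed mouse 4 (7.91%).

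For the envelope in which the pores sit, a list of 36 genes had 32 in the table and 31 tested, with 7 higher and 1 lower (25.8% called, against 27.6% of all genes) and a median log2 fold change of 0.04. It includes Man1a, a Golgi mannosidase gene that does not belong to the envelope and was not called. Lemd2, an inner membrane LEM-domain protein, rose from 1.55 ± 0.832 to 10.5 ± 4.37 CPM (6.57-fold, edgeR adjusted p = 0.00285), and the lamin gene Lmnb2 from 9.33 ± 6.46 to 27.3 ± 5.86 CPM (2.88-fold, adjusted p = 0.0234). Tor1b, an ATPase of the envelope lumen, rose from 2.64 ± 0.704 to 9.72 ± 4.8 CPM (3.56-fold, adjusted p = 0.0123), Syne1 (nesprin 1) from 4.7 ± 0.735 to 10.5 ± 2.75 CPM (2.16-fold, adjusted p = 0.0185) and Tmem43 from 36.1 ± 6.49 to 61.6 ± 14.4 CPM (1.66-fold, adjusted p = 0.0262). Lemd3 was called higher from very few counts (0.162 ± 0.124 and 1.6 ± 0.976 CPM, adjusted p = 0.0233). Banf1, whose product bridges chromatin and LEM-domain proteins, fell from 159.9 ± 10.5 to 135 ± 2.94 CPM (1.22-fold, adjusted p = 0.0281). The calls of Syne1 (without floxed mouse 2 or 4 or knockout mouse 2), Lemd3 (floxed mouse 2 or 4, knockout mouse 2 or 3), Lmnb2 (floxed mouse 2, 3 or 4, knockout mouse 2 or 3) and Tmem43 (floxed mouse 1, 2 or 4, knockout mouse 2, 3 or 4) were lost in turn, with adjusted p from 0.053 to 0.0943. The count of higher genes was 2 without floxed mouse 2 (9.75% of all genes higher), floxed mouse 4 (9.8%) or knockout mouse 2 (8.89%). It was 3 without knockout mouse 3 (9.02%), and the share of all genes higher was 14.4% with all mice. The lower call, Banf1, was lost without floxed mouse 2 or 4 or knockout mouse 3 or 4 and with limma (adjusted p from 0.051 to 0.0848).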

How the data were processed

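Single-oocyte RNA-seq of 26 floxed and 24 knockout oocytes was analysed. Per the labels' protocols, Trizol was used for the RNA and a SMARTer Ultra Low Input kit for the cDNA; this kit amplifies by PCR without molecular identifiers and does not mark strand, so PCR copies are not independent molecules. The values deposited by the authors are raw whole-number counts of reads for 16614 genes or gene rows in 1 table. STAR and mm10 are named in the submitters' processing notes; not given in the sources used here are the version, the counter and how it handled duplicate or multi-mapping reads. Each column was assigned to its sample through the header or title that the labels give. In all 150 pairs of oocytes of 1 mouse the counts differed beyond counting noise (chi-square per degree of freedom 5.39 to 28.2).

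The count of a mouse, summed over its oocytes, was the unit of the test, run in R 4.3.3 with edgeR 4.0.16 (filterByExpr with a minimum count of 10, TMM, robust quasi-likelihood test, Benjamini-Hochberg adjusted p under 0.05 over the 15029 genes tested; biological coefficient of variation 35.4%). CPM was computed from the counts; a log2 fold change is knockout over floxed; its SE is its size over the square root of F. Per-length levels use 1 annotated transcript a gene, the longest of those matched. The motif search uses the matched transcript with the longest 3′ untranslated region. Rows were matched to GENCODE M21 by RefSeq accession (16350) or symbol (186), and 78 were not matched. Spread between oocytes used counts thinned to 1700000 in the 7 mice with 2 or more oocytes. Alternatives were DESeq2 1.42.0, upper-quartile factors, no filter on low counts, limma 3.58.1 on mouse means of log2(CPM + 1), mouse number as a block, and leaving out mice. Full values are given for called genes, group values for the 3 uncalled genes with the smallest p and the most abundant gene per length of each role, and at most 6 called genes per direction of the 2 pathway lists; the other uncalled genes named were chosen after their values were seen. The genes and lists were chosen with earlier results of these data known.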

Additional observations from a re-analysis of the deposited data

Results flagged for a closer look

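In each group of 4 mice, the highest or lowest mouse was compared with its nearest neighbour; a gap that took up more of the group's range than Dixon's 95% critical value marked it as far from the others. This was met in 6 of 126 groups (63 genes in 2 genotypes), and chance alone marks about 5% of groups. Nup133 was high in knockout mouse 1, at 87.5 CPM against 60.8 to 64.3 CPM in the other knockout mice. Lmnb2 was also high in knockout mouse 1, at 36.0 CPM against 23.2 to 25.1 CPM. Ipo8 was low in floxed mouse 1, at 373.8 CPM against 507.6 to 531.8 CPM, and so was Xpo5, at 56.6 CPM against 79.4 to 83.1 CPM. Ndc1 was high in knockout mouse 4, at 83.1 CPM against 72.3 to 73.7 CPM, and Nup210l was high in floxed mouse 4, at 2.54 CPM against 0.939 to 1.2 CPM. Floxed mouse 1 accounted for 2 of the 6 and knockout mouse 1 for 2. Of these genes only Lmnb2 was called in the comparison of genotypes.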

How the results depend on the processing

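No called fold change among the named genes reversed under any alternative. The count of higher pore and transport genes (9) was 9 with DESeq2, upper-quartile factors, no filter and limma, 12 with the mouse number as a replicate block (19.1% of all genes) and 11 without mouse 1 of both genotypes, and 6 to 11 with each mouse left out; that of lower ones (4) was 2 with limma (13.1% of all genes), 9 with the replicate block (19.6%), 13 without mouse 1 of both genotypes and 1 to 8 with each mouse left out. The median log2 fold change of −0.06 ran from −0.13 to −0.04 with each mouse left out. Same-numbered mice correlated at 0.32, 0.00, 0.25 and 0.18 in their deviations from group means, and not every mouse correlated best with its own number, so the numbers were not taken to pair mice; the replicate block gave 2876 higher and 2947 lower genes in all. It kept the 13 calls and added 8: Nup205 (adjusted p = 0.0497), Ipo11 (0.0145) and Ipo13 (0.0424) higher, and Nup93 (0.00812), Nup88 (0.0379), Nup50 (0.0462), Kpna2 (0.0295) and the exportin gene Xpo5 (0.0351) lower. Over all genes, the higher count (2164) was 1359 to 2538 (8.89% to 16.4%) with each mouse left out. The lower count (1984) was 1219 to 2822 (7.91% to 18.3%). Without mouse 1 of both genotypes 3182 genes were higher (20.8%) and 3549 lower (23.1%). In the other transport list the higher count (6) was 10 without mouse 1 of both genotypes (20.8% of all genes higher). The lower count (4) was then 8 (23.1% of all genes lower). With each mouse left out they were 3 to 8 and 1 to 5, beside the shares of all genes given above. In the envelope list the higher count (7) was 2 to 7 with each mouse left out (8.89% to 16.4% of all genes). The lower count (1) was 3 with DESeq2 (16.6% of all genes) and 0 with limma (13.1%; 2 at an unadjusted p under 0.05). It was 3 with the replicate block (19.6%), 5 without mouse 1 of both genotypes (23.1%) and 0 to 4 with each mouse left out (7.91% to 18.3%). Without mouse 1 or any 1 mouse fewer samples enter the fit; otherwise the cause was not tested. The motif TATTTAT was in 15 genes and TTATTTATT in 1. Totals per mouse limited low genes most: Nup62cl could not be tested, and intervals of Nup210 and Nup210l were wide. PCR copies are not independent, so count-based limits cover counting error only.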
